A study of Mus musculus with 6 samples.

Results

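The miR-130 and miR-301 family was measured in small RNA libraries from the nucleus accumbens (NAc), a forebrain region that takes part in reward learning. Its members were taken as every miRNA in the deposited table whose name starts with miR-130a, miR-130b, miR-301a or miR-301b followed by an arm, which gave 8 of the 1364 miRNAs listed. These are the 3p and the 5p arm of each of 4 hairpins, the 3p arm being the one nearer the 3′ end of the hairpin. The animals were male C57BL/6N mice, 7 to 8 weeks old, trained in conditioned place preference (CPP), in which a drug is paired with one of the compartments of a box. Morphine mice received 10 mg/kg morphine by intraperitoneal injection over 6 days of conditioning, in sessions that by the study's protocol alternated with saline. Saline mice received saline, and tissue was taken after the test on day 7. There were 3 libraries per group, and the series text counts 6 mice for the 3 libraries of a group while a legend of the study names a single mouse for each, so libraries may be pools. Nothing says how mice were divided among libraries, so p-values measure only the spread between these libraries.

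A hairpin precursor is cut into a duplex of its arms, and as a rule one strand, the guide, is kept in an Argonaute protein and pairs through its seed, bases 2 to 8, with target mRNAs. The family is defined by the seed of its 3p arms, which are usually taken as the guides, and it is best known from blood vessels and fat cells, where it represses PPARγ, a nuclear receptor that drives fat cell formation. The 5p arms have other seeds and are usually taken as passenger strands. In the GRCm38.p6 assembly Mir130a lies on the minus strand of chromosome 2 (84741115 to 84741178), where GENCODE vM21 annotates no other gene. Mir301, the hairpin of miR-301a, lies on chromosome 11 (87113004 to 87113089) in an intron of Ska2, a gene of the spindle and kinetochore complex, on the same strand. Mir130b (17124061 to 17124142) and Mir301b (17124400 to 17124496) are neighbours on the minus strand of chromosome 16, 257 bases apart, in introns of 2610318N02Rik.

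RefSeq holds the mature sequence of 7 of the 8 members, which are 22 or 23 bases long, and they are shown because the arms of a hairpin, and not the hairpins, carry the seeds. Capitals mark the seed, and the prefix mmu, for mouse, is left out in the text that follows. mmu-miR-301b-3p is the member without a printed sequence.
mmu-miR-130a-3p: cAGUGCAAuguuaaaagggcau
mmu-miR-130b-3p: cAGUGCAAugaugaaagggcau
mmu-miR-301a-3p: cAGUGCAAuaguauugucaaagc
mmu-miR-130a-5p: gCUCUUUUcacauugugcuacu
mmu-miR-130b-5p: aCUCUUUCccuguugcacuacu
mmu-miR-301a-5p: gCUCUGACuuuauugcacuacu
mmu-miR-301b-5p: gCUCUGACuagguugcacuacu
The 3p arms shown share the seed AGUGCAA, which pairs with TTGCACT in a target. miR-130a-3p and miR-130b-3p differ at 2 bases, U11A and A13G, counted from the 5′ end with the miR-130a base first. The 5p arms fall into 3 seeds, and only miR-301a-5p and miR-301b-5p share one, CUCUGAC. These 5p arms differ at 3 bases, U10A, U11G and A12G, with the miR-301a base first. How reads that match more than 1 miRNA were counted is not given in the sources used here, so the split between such near-copies is uncertain. RefSeq lists 7 mature mouse miRNAs with the seed AGUGCAA, and the other 4, miR-130c, miR-721, miR-6341 and miR-6389, are not among the miRNAs of the count table. The seed CUCUGAC occurs in no other RefSeq miRNA, and neither does CUCUUUU of miR-130a-5p. CUCUUUC of miR-130b-5p is shared with miR-7014-3p, which is in the count table.

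Library totals ranged from 4183333 to 9842050 counts. Levels are given as CPM, the counts of a miRNA scaled to a fixed library size, with TMM scaling, whose factors ran from 0.80 to 1.32. They carry no term for length, and the mature lengths are nearly equal. A library with 0 counts allows a level of up to 3 counts, between 0.315 and 0.549 CPM for the members concerned, and such limits and all intervals below cover counting error only. Saline replicate 2 stood apart from its group: among miRNAs that reached 10 counts over all libraries, its Spearman correlations with the other saline libraries were 0.869 and 0.874, and those with the morphine libraries were 0.907 to 0.926. Saline replicates 1 and 3 had a correlation of 0.952 with each other and of 0.864 to 0.883 with the morphine libraries. Their TMM factors were 1.31 and 1.32, against 0.80 for saline replicate 2 and 0.84 to 0.94 for the morphine libraries. Which of the saline libraries were the unusual ones was not tested. Values without saline replicate 2, which leave replicates 1 and 3 as the saline group, are given beside the results that it moves. Of the neuronal miRNAs miR-124-3p, miR-128-3p, miR-9-5p and miR-132-3p, none was at 0, and together they made up 130221 to 272189 CPM in the saline libraries and 178867 to 207510 CPM in the morphine libraries. Most of that sum was miR-9-5p and miR-128-3p. The mean of miR-124-3p was 5796 CPM in the saline and 1569 CPM in the morphine libraries, without overlap.

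All 8 members together held 2928 counts in the 6 libraries, of which 86.3% were on 5p arms and 13.7% on 3p arms. The family made up 66.7, 53.4 and 83.6 CPM of the unscaled total of saline replicates 1, 2 and 3 and 69.7, 70.2 and 53.3 CPM of that of morphine replicates 1, 2 and 3, so the groups overlapped. miR-130b-5p alone held 64.8% of the family's counts, miR-301a-5p 18% and miR-130a-3p 8.78%. By mean TMM-scaled CPM the order was miR-130b-5p (42.7), miR-301a-5p (11.8), miR-130a-3p (5.6), miR-301b-5p (2.08), miR-130b-3p (1.94), miR-301a-3p (1.01), miR-130a-5p (0.373) and miR-301b-3p (0.337). miR-130b-5p exceeded miR-301a-5p in 6 of 6 libraries, and miR-130a-3p exceeded miR-301b-5p in 6 of 6. miR-301a-5p exceeded miR-130a-3p in 5 of 6 libraries. miR-301b-5p exceeded miR-130b-3p in 3 of 6, and from miR-301a-3p downwards each member exceeded the next in 2 of 6 libraries and equalled it in 2, so these neighbours were not separated beyond the spread between libraries.

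The hairpins differed in the arm that held their reads. For miR-130a the 3p arm held 94.1% of the counts of both arms (257 of 273, exact 95% interval 90.7 to 96.6% over all libraries summed). For miR-130b it held 4.48% (89 of 1985, interval 3.62 to 5.49%), for miR-301a 7.23% (41 of 567, interval 5.24 to 9.68%) and for miR-301b 14.6% (15 of 103, interval 8.39 to 22.9%). The lowest share of the 3p arm of miR-130a in any library, 75% of 8 counts in saline replicate 1, was above the highest of miR-130b, 6.46% of 526 counts in saline replicate 3. miR-130b was the steadiest, with 4.76, 2.79 and 6.46% of its reads on the 3p arm in saline replicates 1, 2 and 3 and 3.95, 3.44 and 3.91% in morphine replicates 1, 2 and 3.
The miR-301 hairpins varied more, and saline replicate 2 had the highest 3p share of both. For miR-301a the 3p share was 1.53, 1.8 and 1.22% in morphine replicates 1, 2 and 3, with 3, 2 and 1 counts. In the saline libraries it was 0 of 16 counts, 35 of 135 counts and 0 of 27 counts in replicates 1, 2 and 3. The share of 25.9% in saline replicate 2 (exact 95% interval 18.8 to 34.2%) had an interval above those of all 3 morphine libraries. For miR-301b the same library held 6 of 8 counts on the 3p arm, while the others with any count lay between 0 and 20.7%.
The log2 ratio of the arms inside a library, with 0.5 added to each count, does not depend on the scaling between libraries. For miR-301a-3p over miR-301a-5p the saline mean was -4.11 ± 2.29 (SD, n = 3) and the morphine mean -5.67 ± 0.19 (SD, n = 3), a difference of -1.56 (two-sided exact permutation test, p = 0.3). That difference was -0.26 without saline replicate 2 and -0.31 with 0.1 in place of 0.5 added to each count. With 1 added it was -1.92 and the groups did not overlap (exact permutation test, p = 0.1). Without saline replicate 3 it was -2.40 (exact permutation test, p = 0.1), so its size and separation depended on these settings. For miR-301b the difference was -2.79 (exact permutation test, p = 0.2), for miR-130a 1.35 (p = 0.5, exact) and for miR-130b -0.24 (p = 0.5, exact). With saline replicate 2 left out, these were -1.86 for miR-301b, 0.87 for miR-130a and -0.57 for miR-130b. With all libraries and 0.5 added, none of the 4 arm ratios was separated between the groups. The smallest p that 3 libraries against 3 allow is 0.1, and with Benjamini-Hochberg adjustment over the 10 ratios tested in the family each of these 4 had an adjusted p of 0.556.

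**Figure D1:**
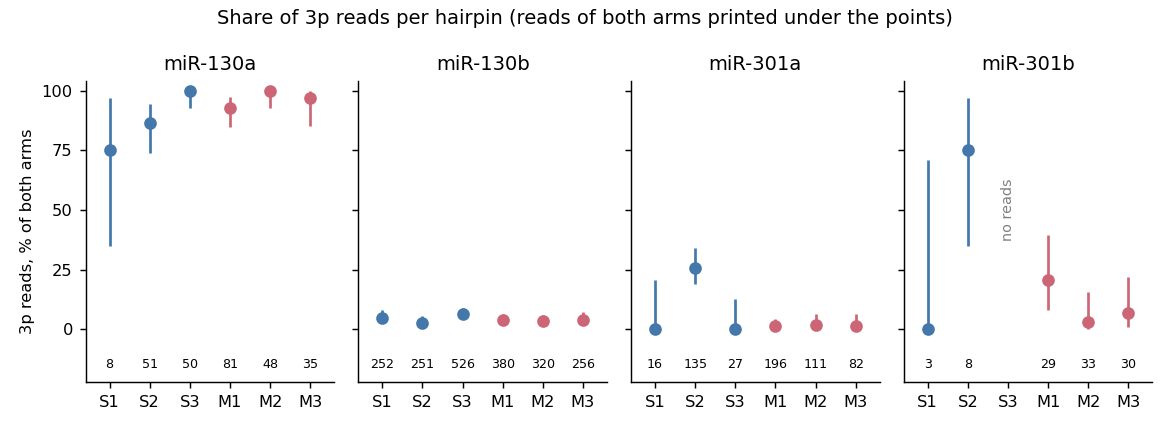
Percent of each hairpin's reads that fell on the 3p arm (y axis) in saline libraries S1 to S3 (blue) and morphine libraries M1 to M3 (red), with exact 95% intervals and the reads of both arms printed below. miR-130a lies at 75% or above in every library and miR-130b at 6.46% or below, while S2 is the saline library with 3p reads of miR-301a and miR-301b.

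Between the groups, miR-301b-5p was the member that rose in the morphine group. It had 3, 2 and 0 counts in saline replicates 1, 2 and 3 (0.549, 0.3 and 0 CPM) and 23, 32 and 28 counts in morphine replicates 1, 2 and 3 (2.54, 4.69 and 4.4 CPM). Every morphine library lay above every saline library, saline replicate 2 included. The log2 fold change was 3.84 (SE 0.96, adjusted p = 0.0179 by the quasi-likelihood test of edgeR, Benjamini-Hochberg over 1364 miRNAs). Each edgeR value given here was adjusted over the miRNAs tested in its own comparison. These were 1364 with all libraries and no filter, 1328 without saline replicate 2 and 1321 and 1336 without morphine replicates 1 and 2. They were 899 with a minimum of 10 counts in total and 1281 with miRBase names only. Since the saline group held only 5 counts, the fitted size is loosely set: the ratio of summed counts over scaled depth was 16.2, with an exact 95% counting interval of 6.66 to 51.1. Without morphine replicate 1 the adjusted p was 0.164 and without morphine replicate 2 it was 0.0526 (same edgeR test), with log2 fold changes of 4.16 and 3.68. With a minimum of 10 counts in total it was 0.0638, and over all alternatives it ranged from 1.65e-06 to 0.164.
By the study's criteria for miRNAs, which ask for 0.58 or more in |log2 fold change| and 0.05 or less in p without adjustment, miR-301b-5p was the single member called, 1 of 8 or 12.5%, against 19.4% of all 1364 miRNAs. At an adjusted p under 0.05 it was also 1 of 8, against 5.21% of all, or 3.08% counting only those higher in the morphine group. Its values did not overlap between the groups, which held for 22.1% of all miRNAs, with the morphine libraries above in 12.2% and below in 9.90%. The log2 fold change was above 0 for 4 members and below 0 for 4, with a median of 0.14 against -0.15 over all miRNAs. The share of members called by those criteria was not above that of the table as a whole.

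**Figure D2:**
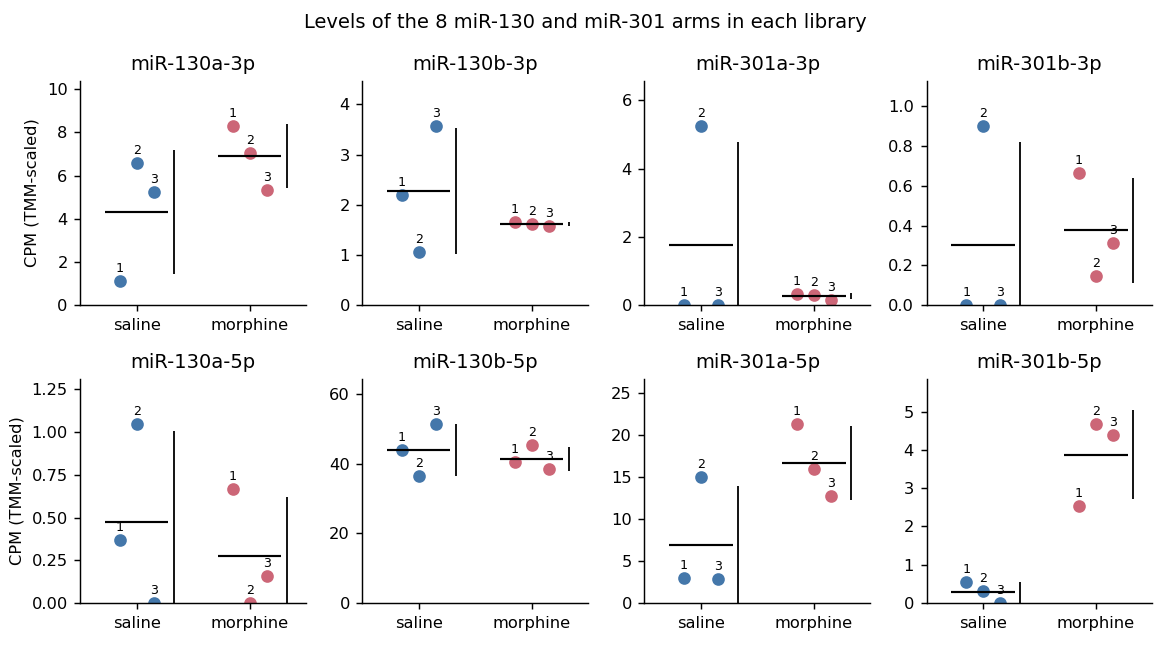
Level of each of the 8 members in CPM after TMM scaling (y axis, a separate scale in each panel) in the saline (blue) and morphine (red) libraries, numbered by replicate, with the group mean as a horizontal line and 1 SD (n = 3, drawn down to 0 at most) as a vertical line. The groups are apart for miR-301b-5p alone, and saline replicate 2 lies with or above the morphine libraries for miR-301a-5p and miR-301a-3p.

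miR-301a-5p, which shares its seed with miR-301b-5p but comes from the Ska2 intron, was at 2.93, 15 and 2.83 CPM in saline replicates 1, 2 and 3 and at 21.4, 16 and 12.7 CPM in morphine replicates 1, 2 and 3. Saline replicates 1 and 3 lay below the morphine libraries and saline replicate 2 within them. Its log2 fold change was 1.27 (edgeR, SE 0.65, adjusted p = 0.304), which did not pass the criteria. Without saline replicate 2 it was 2.53 (edgeR, SE 0.45, adjusted p = 9.18e-07), in a comparison in which 37.0% of 1328 miRNAs met the study's criteria (20.9% with the morphine group above, 16.1% with it below) and 29.1% had an adjusted p under 0.05. In that comparison 4 members met the criteria, miR-130a-3p, miR-301a-5p, miR-301b-3p and miR-301b-5p, and miR-301a-5p and miR-301b-5p had an adjusted p under 0.05. With all libraries miR-301a-5p also met them with the replicate number as a block (log2 fold change 1.71, adjusted p = 0.311, edgeR) and with miRBase names only (1.36, adjusted p = 0.239, edgeR). The log2 ratio of miR-301a-5p over miR-301b-5p was 4.45 ± 1.93 (SD, n = 3) in the saline and 2.10 ± 0.82 (SD, n = 3) in the morphine group, a difference of -2.35 that was within the spread between libraries (exact permutation test, p = 0.2), and -1.91 without saline replicate 2.
miR-301a-3p, the arm of the miR-301a hairpin with the family seed, held 7.23% of the reads of both arms over all libraries. Most of the counts of miR-301a-3p were in a single library. It had 0, 35 and 0 counts in saline replicates 1, 2 and 3 and 3, 2 and 1 counts in morphine replicates 1, 2 and 3. With all libraries the log2 fold change was -2.64 (edgeR, SE 1.37, adjusted p = 0.284), short of the criteria. Without saline replicate 2 no saline count was left and 6 morphine counts remained, so no fold change is given (adjusted p = 0.24, edgeR). Without saline replicate 1 or 3 the criteria were met, with log2 fold changes of -3.09 and -3.13. The direction for miR-301a-3p thus rested on saline replicate 2.
miR-301b-3p had 0, 6 and 0 counts in saline replicates 1, 2 and 3 and 6, 1 and 2 counts in morphine replicates 1, 2 and 3. Its log2 fold change was 0.37 (edgeR, SE 1.45, adjusted p = 0.888), too loosely set to give a direction at this depth. Without saline replicate 2 it had no saline count and met the criteria (adjusted p = 0.132, edgeR).

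miR-130b-5p, the most abundant member, had no detectable difference between the groups. It was at 43.9, 36.6 and 51.6 CPM in saline replicates 1, 2 and 3 and at 40.4, 45.3 and 38.6 CPM in morphine replicates 1, 2 and 3, with the groups fully interleaved. Its log2 fold change was -0.09 (edgeR, SE 0.49, adjusted p = 0.933), close to the median of -0.15 over all miRNAs. Scaling by library totals moved that median to -0.40 and the value of miR-130b-5p to -0.47, so it stayed near the median of the table.
miR-130b-3p, the arm of the same hairpin with the family seed, held 4.48% of the reads of both arms over all libraries. It was at 2.2, 1.05 and 3.57 CPM in saline replicates 1, 2 and 3. In morphine replicates 1, 2 and 3 it was at 1.66, 1.61 and 1.57 CPM. The morphine libraries lay inside the saline range, and the log2 fold change was -0.50 (edgeR, SE 0.73, adjusted p = 0.701).
miR-130b and miR-301b lie in introns of the same gene and on the same strand, so their 5p arms were compared inside each library. The log2 ratio of miR-301b-5p over miR-130b-5p was -6.10, -6.61 and -9.94 in saline replicates 1, 2 and 3 and -3.96, -3.25 and -3.11 in morphine replicates 1, 2 and 3. All morphine libraries lay above all saline libraries, with a difference of 4.11, at the smallest p the design allows (two-sided exact permutation test, p = 0.1, adjusted p = 0.556 over 10 ratios). The size is loosely set, since miR-301b-5p had 0 counts in saline replicate 3 and the ratio there rests on the 0.5 added: the difference was 2.92 without that library, 5.01 with 0.1 added to each count and 3.65 with 1 added. It was 4.58 without saline replicate 2. With all libraries and 0.5 added, this was 1 of 10 ratios whose groups did not overlap. The ratio of the 3p arms, miR-301b-3p over miR-130b-3p, differed by 1.57 with overlapping groups (exact permutation test, p = 0.5), and by 3.29 without saline replicate 2.

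miR-130a-3p, the 3p arm of the family with the most counts, was at 1.1, 6.6 and 5.24 CPM in saline replicates 1, 2 and 3. In morphine replicates 1, 2 and 3 it was at 8.3, 7.03 and 5.34 CPM. Saline replicate 1, the shallowest library, was low with 6 counts, and the other libraries overlapped. The log2 fold change was 0.67 (edgeR, SE 0.67, adjusted p = 0.584). Without saline replicate 2 it was 1.05 (edgeR, SE 0.48, adjusted p = 0.0843), and without saline replicate 1 it was 0.32. Against its paralog, the log2 ratio of miR-130a-3p over miR-130b-3p was 0.73 ± 1.76 (SD, n = 3) in the saline and 2.03 ± 0.29 (SD, n = 3) in the morphine group, a difference of 1.30 (exact permutation test, p = 0.4) that was 2.22 without saline replicate 2.
Its passenger miR-130a-5p had 2, 7 and 0 counts in saline replicates 1, 2 and 3 and 6, 0 and 1 counts in morphine replicates 1, 2 and 3. At 16 counts in all, no difference was detectable (log2 fold change -0.63, SE 1.43, adjusted p = 0.8, edgeR), and the value was 0.91 without saline replicate 2. The remaining ratios, of miR-130a-5p over miR-130b-5p and of miR-301a-3p over miR-301b-3p, differed by -0.30 and -1.11 (exact permutation tests, p = 0.8 and p = 0.4), and by 0.78 and -0.30 without saline replicate 2.

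**Figure D3:**
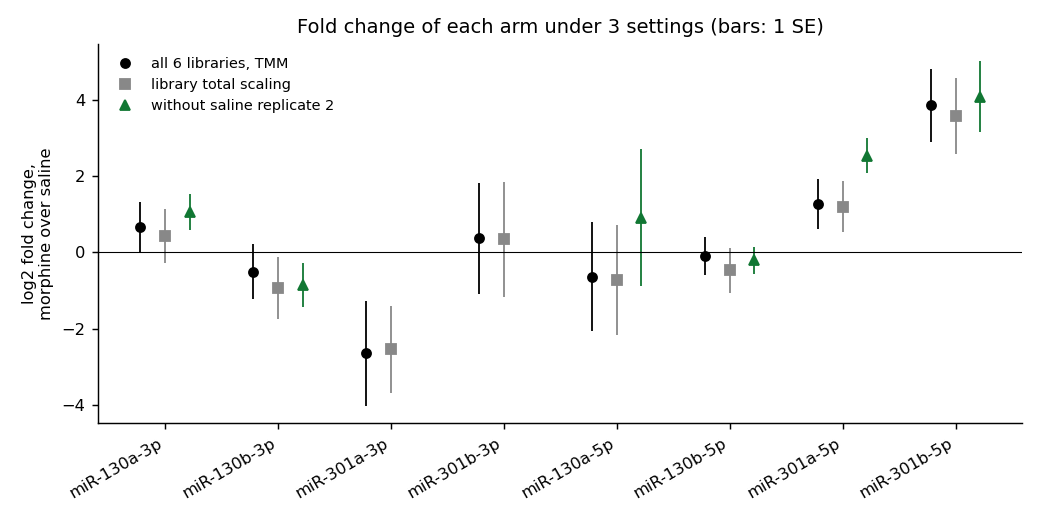
Log2 fold change of each member, morphine over saline (y axis), with 1 SE, for all 6 libraries with TMM scaling (circles), with library total scaling (squares) and without saline replicate 2 (triangles). miR-301b-5p stays between 3.57 and 4.07 and miR-301a-5p goes from 1.27 to 2.53 without saline replicate 2. No triangle is drawn for miR-301a-3p and miR-301b-3p, which then have no saline count.

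**Figure D4:**
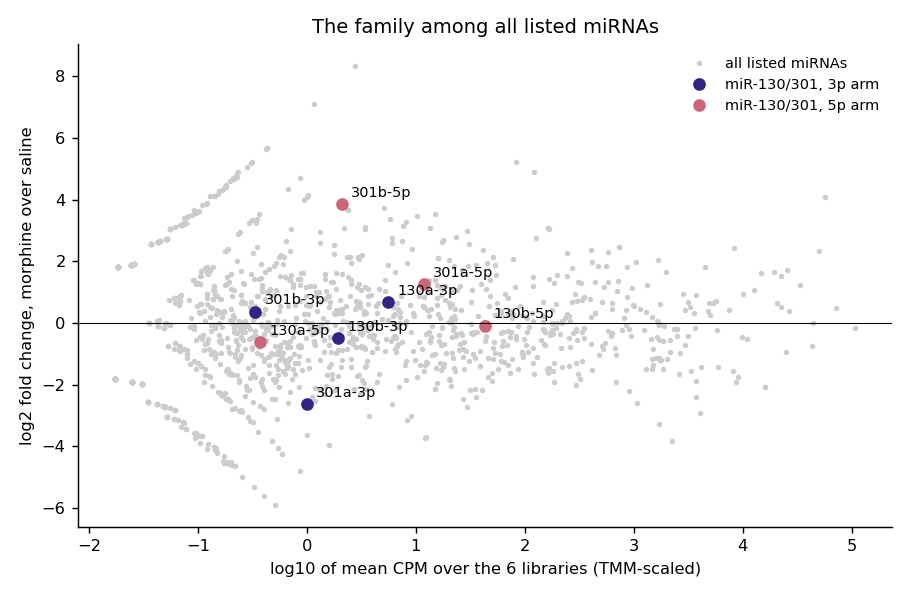
Log2 fold change, morphine over saline (y axis), against the log10 of mean TMM-scaled CPM (x axis) for all 1364 miRNAs (grey), with the 3p (blue) and 5p (red) members named. miR-301b-5p lies at 3.84 and a mean of 2.08 CPM, and miR-130b-5p, the most abundant member, lies at -0.09 and 42.7 CPM.

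The seed of the 3p arms overlaps with those of other families, so those families can be read beside it. These families are shown for the shift of their seeds against AGUGCAA, with capitals marking bases 2 to 8.
miR-148a-3p: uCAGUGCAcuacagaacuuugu
miR-152-3p: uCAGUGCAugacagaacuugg
miR-19b-3p: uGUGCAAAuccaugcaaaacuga
The family of miR-148a-3p, miR-148b-3p and miR-152-3p, whose seed lies 1 base earlier, had 3 of 3 members higher in the morphine group by the study's criteria, where 9.68% of all miRNAs were higher, with a median log2 fold change of 1.50. miR-152-3p had 165, 843 and 287 counts in saline replicates 1, 2 and 3 and 2573, 758 and 847 in morphine replicates 1, 2 and 3 (log2 fold change 1.50, edgeR, SE 0.58, adjusted p = 0.145), and its groups overlapped through saline replicate 2. Without that library the log2 fold change of miR-152-3p was 2.55. Its call was lost in 2 of 15 alternatives, without morphine replicate 1 (1.09) and with a minimum of 10 counts in total (1.44). miR-148b-3p rose with a log2 fold change of 1.04 (edgeR, SE 0.48, adjusted p = 0.245), a call lost in 12 of 15 alternatives and kept without saline replicate 2 (1.47). miR-148a-3p, by far the most abundant of the 3, had a saline mean of 6378 ± 6798 CPM (SD, n = 3) and a morphine mean of 107457 ± 16142 CPM (SD, n = 3) (log2 fold change 4.07, SE 0.58, adjusted p = 0.000857, edgeR), and its log2 fold change was 5.45 without saline replicate 2.
The miR-19 family, whose seed lies 1 base later, had 2 of 2 members lower in the morphine group, where 9.68% of all miRNAs were lower. Neither was called without saline replicate 2, but the values behind the lost calls were unlike. miR-19b-3p had 12, 294 and 17 counts in saline replicates 1, 2 and 3 and 22, 9 and 13 in morphine replicates 1, 2 and 3, with a log2 fold change of -3.04 (SE 0.87) that became -0.02 (SE 0.59) without saline replicate 2 and -1.31 with the replicate block, where the call was also lost, as it was without morphine replicate 1 (-3.12). Like miR-301a-3p, it was high in that library alone. miR-19a-3p had 3, 16 and 1 counts in saline replicates 1, 2 and 3 and none in the morphine libraries. With saline replicate 2 left out, it kept 4 saline counts against 0 in the morphine libraries (adjusted p = 0.184, edgeR), too few to show a difference at this depth, and no fold change is given. In the miR-17 family, whose seed holds AGUGC, 1 of 6 members was lower and 0 were higher by edgeR's test, and without saline replicate 2 there were 3 higher and 1 lower.

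By the rule for likeness, the miRNAs whose levels followed miR-130b-5p most closely over the 6 libraries were miR-679-5p, miR-325-3p, miR-219a-2-3p, miR-672-5p and miR-382-5p. The distance used was the root mean square difference in log2 of CPM plus 0.5, centred on each miRNA's mean. From miR-130b-5p it was 0.12, 0.17, 0.18, 0.2 and 0.21, against a median of 0.76 over the 373 miRNAs with a mean of at least 100 counts. Inside the family the closest pair was miR-130b-3p and miR-130b-5p, at 0.29, and the distance of miR-301b-5p from miR-130b-5p was 1.38. The 0.5 added shrinks differences between low levels, so these distances are not directly comparable with those of the more abundant miRNAs.

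Some miRNAs known from other cell types also differed between the groups, and in bulk tissue fewer cells of a type and less RNA per cell cannot be told apart. By the study's criteria 9.68% of all miRNAs were higher and 9.68% lower with all libraries, and 20.9% were higher and 16.1% lower without saline replicate 2. Of the endothelial miR-126a arms 1 of 2 was higher in the morphine group, miR-126a-3p. The summed level, mostly that arm, was 1485 to 5002 CPM in the saline and 10984 to 16264 CPM in the morphine libraries. The other arm, miR-126a-5p, was not called and had a log2 fold change below 0 (-0.96, adjusted p = 0.522, edgeR). Without saline replicate 2 both arms were higher. Of 4 choroid plexus and ependymal miRNAs 1 was lower, miR-204-5p, with a mean of 1896 CPM in the saline and 668 CPM in the morphine libraries. It made up most of the sum, which was 1945 to 2766 CPM against 940 to 992 CPM. miR-34b-5p, miR-34c-5p and miR-449a-5p were not called, with log2 fold changes of 0.17, -0.29 and 0.69. Without saline replicate 2 there were 3 higher and 1 lower. Of 4 mural and fibroblast miRNAs 1 was higher (7152 to 18957 against 5749 to 13824 CPM), and without that library 2 were higher and 1 lower. Of 3 red cell miRNAs 1 was higher (208 to 311 against 358 to 571 CPM), and without that library 1 was higher and 1 lower. Of 5 microglial and leukocyte miRNAs 1 was higher and 1 lower with and without it (452 to 995 against 960 to 1184 CPM). That sum was mostly these opposed miRNAs. The mean of miR-146a-5p was 198 CPM in the saline and 966 CPM in the morphine libraries, and that of miR-150-5p 476 and 117 CPM. Of 3 oligodendrocyte miRNAs 1 was lower (1820 to 1903 against 1572 to 1963 CPM). This was miR-219a-5p, with 15, 426 and 23 counts in saline replicates 1, 2 and 3 and 36, 5 and 3 in morphine replicates 1, 2 and 3. Its log2 fold change was -3.69 and became -0.50 without saline replicate 2, where no oligodendrocyte miRNA was lower and 1, miR-338-3p, was higher (0.88). Of the 4 neuronal miRNAs 1 was lower, miR-124-3p (log2 fold change -1.88, adjusted p = 0.0195, edgeR). Without saline replicate 2, 1 was higher, miR-9-5p (0.65), and 1 lower, miR-124-3p (-2.04). In this paragraph miR-204-5p, miR-34b-5p, miR-34c-5p, miR-449a-5p, miR-146a-5p, miR-150-5p, miR-219a-5p, miR-338-3p, miR-124-3p and miR-9-5p were named after their values were seen. No miRNA of these lists was at 0 in all libraries, and their part in the values of miR-301b-5p was not tested.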

How the data were processed

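Small RNA was sequenced from 3 saline and 3 morphine NAc libraries. The authors discarded reads with adapters, poly-N stretches or low quality and reads outside a length range, used Bowtie to take out ribosomal and transfer RNA and repeats, and matched what was left to miRBase. The authors deposited a raw read count per miRNA and library, and a TPM value that was checked to be the count over the library total and was not used in a test. The genome build, the miRBase release and the rule for reads matching several miRNAs are not given in the sources used here. Such reads could move counts between near-copies of the family. The number of columns left unused was 0.

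The deposited counts were scaled by TMM, and edgeR 4.0.16 (R 4.3.3) fitted its quasi-likelihood model over all 1364 miRNAs with at least 1 count, without covariates. The smallest library, 4183333 counts, had the highest floor, 0.717 CPM before scaling for 3 counts. Alternatives were other scalings, DESeq2 1.42.0, edgeR's exact test, filters on low counts, miRBase names only, the replicate number as a block and leaving out each library. The test was tried on simulated data with known changes. Of miRNAs given a log2 change of 1, 15% met the study's criteria, and 29.4% of those with a mean of at least 100 counts. At an adjusted p under 0.05 it was 0%, so a change of that size can be missed. With a log2 change of 3, 62.5% met the criteria and 44% had an adjusted p under 0.05. Of unchanged miRNAs 4 to 4.83% met the criteria. Ratios inside a library were compared by exact permutation over the 6 libraries. All members were described. Other miRNAs were named by list (the families with overlapping seeds), for sharing a member's seed, or as the 5 closest to the most abundant member in pattern. The members and lists were chosen with earlier results of these data known. Sequences and positions came from RefSeq (GRCm38.p6), which matched 1089 of the 1364 names and 7 of the 8 members, and GENCODE vM21, not from the authors' table.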

Additional observations from a re-analysis of the deposited data

How the results depend on the processing

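Across 327 recomputed values, miR-301b-5p kept its direction and its call by the study's criteria in all 15 alternatives. The number of members meeting them was 1 with all libraries, 2 with library total scaling, upper quartile scaling, miRBase names only or the replicate block, and 1 to 4 when a library was left out, the 4 being without saline replicate 2. The second member was miR-301a-3p under library total scaling (log2 fold change -2.53) and upper quartile scaling (-2.70), and miR-301a-5p with miRBase names only (1.36) and with the replicate block (1.71). Leaving out each library gave log2 fold changes of 0.32 to 1.05 for miR-130a-3p, -2.25 to 0.91 for miR-130a-5p, -0.85 to 0.07 for miR-130b-3p, -0.21 to 0.12 for miR-130b-5p, -3.13 to 4.07 for miR-301a-3p, 0.99 to 2.53 for miR-301a-5p, -0.24 to 4.59 for miR-301b-3p and 3.23 to 4.83 for miR-301b-5p. The values 4.07 and 4.59 are fitted against saline libraries with no count and are not sizes. The difference in log2 ratio ranged from -0.57 to 0.03 for the arms of miR-130b and from -1.68 to 0.78 for miR-130a-5p over miR-130b-5p. The other 8 ratios kept their direction.

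Over all miRNAs, 264 met the study's criteria, and 176 to 492 did when a library was left out. Of these calls 50% were higher in the morphine group, against 34.9% with library totals and 37.7% with upper quartile scaling. At an adjusted p under 0.05 there were 71, against 160 with library totals, 153 with upper quartile scaling, 161 with DESeq2, 28 with at least 10 counts in total, 110 with miRBase names only and 32 with the replicate block. Leaving out a library gave 0 (edgeR, without morphine replicate 1, with 176 at an unadjusted p under 0.05) to 386 (without saline replicate 2), and 37 without morphine replicate 2. The cause of these changes was not tested. The deviations of same-numbered libraries had correlations of -0.23, -0.28 and 0.14. The labels give such libraries only a number in common, and whether they share a batch cannot be told from these values. With the replicate block miR-301b-5p kept its call, with an adjusted p of 0.0555. The filterByExpr filter removed miR-130a-5p, miR-301a-3p and miR-301b-3p, so they have no value there. Members with under 20 counts in all were limited by depth.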
